A study of Mus musculus with 50 samples.

Results

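The regions described here are m6A-seq peaks at the very beginning of messages that carried no peak anywhere else. The authors deposited 32009 peaks on 14219 transcripts, and the set takes all peaks placed in the transcript-start part, within the first 199 nt, whose transcript had no peak in the 5' UTR beyond the start, the coding sequence, around the stop codon or in the 3' UTR. There were 2853 such peaks on 2780 transcripts, which is 8.91% of all peaks and 41.6% of the 6864 transcript-start peaks. Of these transcripts 2707 had 1 start peak and 73 had 2. The set was selected on measured values, namely where peaks were called in these same libraries, so the absence of other peaks is a property of the set and not a result.

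The cells were mouse B cells kept overnight with LPS, part of the bacterial outer membrane, which makes resting B cells grow and divide. The m6A profile had 12 of the 50 libraries of the series, in 4 groups of 3: RNA pulled down with a polyclonal antibody to m6A (IP) and RNA before the pull-down (Input), each from AIDcre Mettl3-flox/+ and AIDcre Mettl3-flox/flox cells. All 12 libraries therefore came from cells with the AIDcre recombinase, which is driven by the locus of AID, an enzyme that B cells turn on after activation. These genotypes come from the library labels, whereas the design text of the series names wild type for the profile. The labels give the strain as C57BL/7 to C57BL/18, a different and consecutive number for each library, so these labels may not be strains at all, and give no age or sex. The remaining 38 libraries are expression profiles of germinal center B cells and were not analysed here. How much METTL3 was left in flox/flox cells after overnight LPS was not measured here, and no label ties a replicate to a mouse of its own, which means that p-values from them may cover technical spread only.

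N6-methyladenosine, or m6A, is a methylated adenosine within a message. It is laid down by a nuclear complex whose catalytic subunit is METTL3, mostly in long internal exons, around stop codons and along 3' UTRs, and reader proteins such as YTHDF2 and IGF2BP3 bind marked messages and alter their decay or stability. A different mark, m6Am, sits on the first transcribed base beside the cap when that base is an adenosine. It is written by PCIF1 and not by METTL3, and antibodies raised against m6A bind it too, so an antibody peak at the transcript start can hold either mark. Which mark these peaks hold was not tested.

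The authors' table gives each peak 1 pooled score in a test arm and 1 in an arm it calls control, in 2 score versions, with an unadjusted p-value for the difference on each version. The table does not give the genotype of either arm. The authors' METTL3-dependent list holds 9005 peaks, and its rule, given below, asks for a higher test-arm score on at least 1 version. That 89.3% of them score higher in the test arm by first-version and 97.5% by second-version values is largely fixed by this rule. From the name of the list and its rule, the test arm was read as flox/+. The other, called the comparator arm below, was read as flox/flox. Every direction between genotypes rests on this reading. The sources used here do not give the formula of the scores. First-version scores were checked by raising 2 to the power of 3 times the score, using only resulting values up to 30. This gave a simple fraction (denominator up to 1000, relative tolerance 1e-10) for 51.9% of the 12213 comparator scores and 26.3% of the 8939 test scores usable. A multiplier of 4 gave 9.08% of 7673 and 4.32% of 5043. Higher scores of the 32009 peaks could not be checked. First-version scores are therefore read as means of 3 log2 ratios, 1 per replicate. No such pattern was seen on the second version (0.0131%), whose scale is therefore unknown here. There were no values per library and no read totals, so the depth behind a score is unknown.

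Start-only messages had start peaks with scores above 0 at the median in both arms. The first-version score of the 2853 peaks had a test-arm median of 2.28 (quartiles 1.54 to 3.22) and a comparator-arm median of 2.50 (1.85 to 3.32). The 4011 start peaks on transcripts that also had a peak elsewhere scored a little higher, with medians of 2.38 and 2.72. Peaks outside the start that were likewise the only peak of their transcript, 4099 in number, scored lower, with medians of 1.85 and 1.48. The order of the arms was thus turned around: lone peaks outside the start had the higher median in the test arm and start-only peaks in the comparator arm. On the second version the start-only medians were 2.71 for test and 2.87 for comparator.

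The comparison of arms asks which peaks depend on METTL3. In most start-only peaks the score was not lower but higher in the comparator arm. The median first-version difference, test minus comparator, was -0.27 (95% order-statistic interval -0.30 to -0.23, quartiles -0.74 to 0.21), which on a log2 scale is a ratio of 0.829. The second version gave -0.21 (-0.23 to -0.20). First-version scores were lower in the test arm for 1842 of the 2853 peaks (64.6%, 62.8% to 66.3%, against 37.9% of all peaks). Second-version scores were lower there for 1961 (68.7%, against 9604 of all 32009 peaks). Both were lower for 1492 (52.3%, against 22.5% of all peaks). Centring subtracted the median difference of all peaks, which was 0.25 and 0.49 on the 2 versions. The shares lower in the test arm then became 76.6% for the first version and 87.7% for the second. Because both subtracted medians were positive, centring could only raise these shares. By construction it also puts the middle of all peaks at no difference, so the centred shares are no separate check of the direction. The test-arm score was higher on both versions in 539 start-only peaks (18.9%, against 54.5% of all peaks). Intervals here and below cover counting error over peaks only, and not the spread between replicates.

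Side by side with the other sets, the median first-version difference was -0.37 (-0.40 to -0.35) in start peaks on transcripts with other peaks, 0.37 (0.33 to 0.40) in lone peaks outside the start and 0.41 (0.39 to 0.42) in all 25145 peaks outside the start. Both kinds of start peak thus lay on the same side of 0, and lone peaks outside the start lay on the other. First-version scores were lower in the test arm for 31.3% of lone peaks outside the start, against 64.6% of start-only peaks. The sets also differed in position, replicate calls and mean score of both arms (first-version median 1.62 against 2.35). A test-arm score lower by more than 1 was seen in 393 start-only peaks (13.8%, against 6.42% of all peaks). One higher by more than 1 was seen in 224 (7.85%, against 19.1%). In start peaks on transcripts with other peaks these shares were 16.2% and 4.29%. These gaps between sets were not tested, because the scores are pooled over replicates. The 2 score versions ordered both kinds of start peak differently: start-only peaks lay nearer 0 on the first version and farther from it on the second (-0.21 against -0.19).

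**Figure D1:**
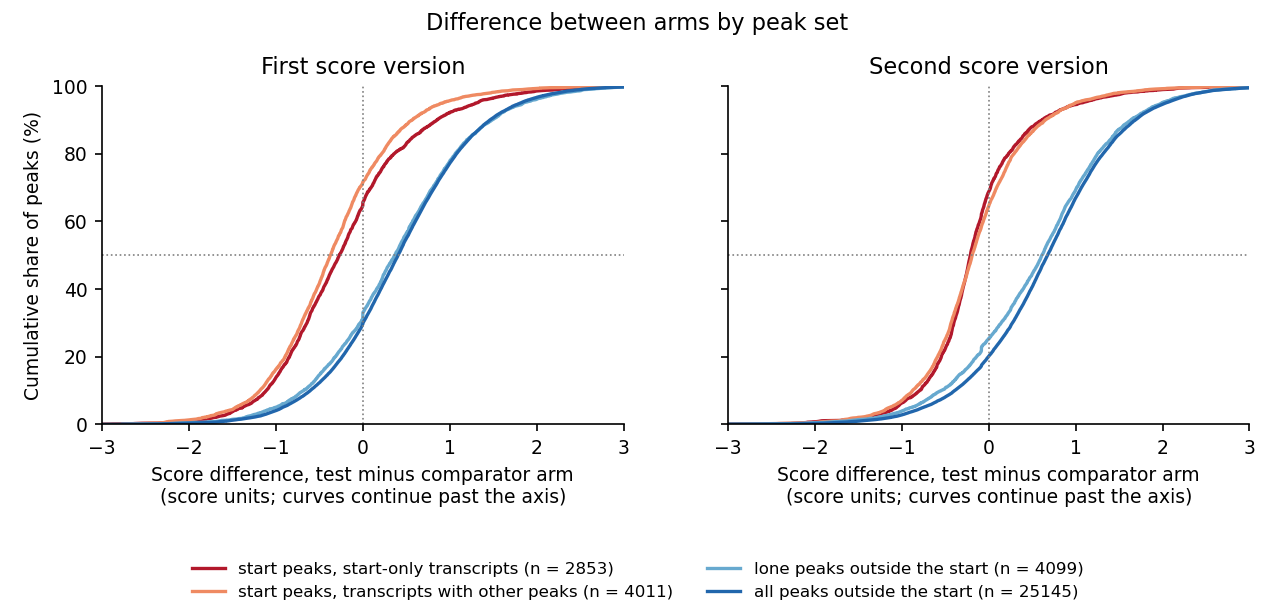
Cumulative share of peaks (vertical axis, percent) by score difference, test minus comparator arm (horizontal axis, score units), for the first version on the left and the second on the right; each line is 1 set of peaks. Both lines for start peaks cross 50% below 0 (-0.27 and -0.37 on the first version), and both lines for peaks outside the start cross it above 0 (0.37 and 0.41).

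By the authors' p-values, start-only peaks leaned to the comparator arm. At an unadjusted p under 0.1, the threshold their list uses, 523 of the 2827 start-only peaks with a first-version p (18.5%) were higher in the comparator arm, against 6.12% of all peaks tested. Only 89 (3.15%) were higher in the test arm, against 14.2% of all peaks. On the second version 406 peaks (14.2%) were higher in the comparator arm, where 3.86% of all peaks were, and 75 (2.63%) in the test arm, where 21.3% were. Requiring both versions left 138 peaks higher in the comparator arm (4.88%, against 1.37% of all peaks) and 20 higher in the test arm (0.707%, against 8.77%). No start-only peak passed an adjusted p of 0.05 (Benjamini-Hochberg over all peaks of the table, on the authors' p-values, whose test is not named), as was so for all peaks (0%). The smallest adjusted values among the members were 0.330 and 0.232 on the first and second version. Unadjusted p-values under 0.05 numbered 371 (13.1%, against 11.5% of all peaks) and 251 (8.80%, against 14.9%). The lean to the comparator arm is therefore a description of the set, and no single peak is called.

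**Figure D2:**
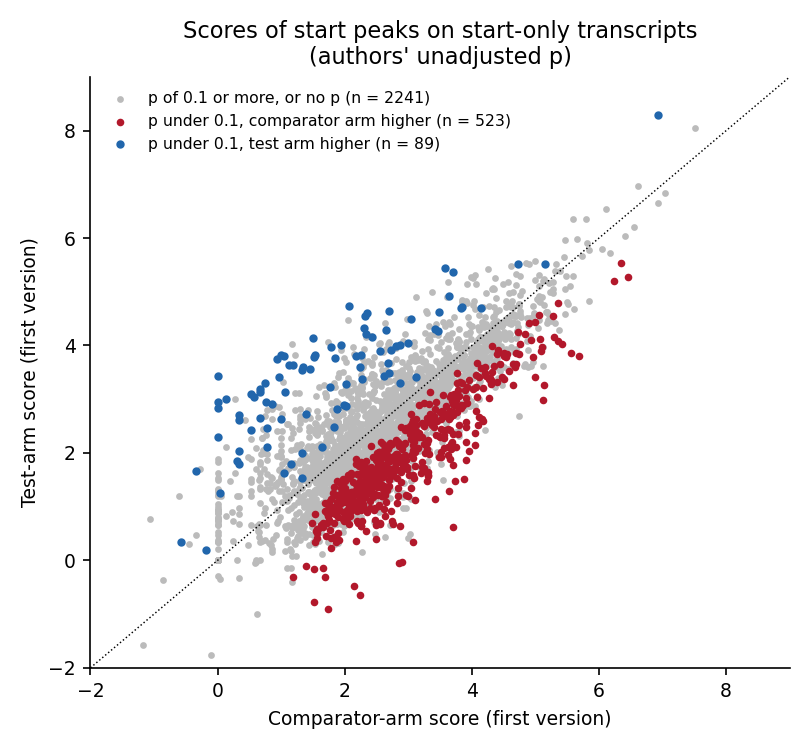
First-version score of each of the 2853 start-only peaks in the comparator arm (horizontal axis) and the test arm (vertical axis), with equality as a dotted line. Red points have an unadjusted p under 0.1 with the comparator arm higher (523) and lie below the line; blue points have the test arm higher (89) and lie above it.

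The METTL3-dependent list held 254 start-only peaks, 8.90% of them (exact Clopper-Pearson 95% interval 7.88% to 10.0%), against 28.1% of all peaks. The share was 6.86% (6.09% to 7.68%) in start peaks on transcripts with other peaks and 33.1% (31.6% to 34.5%) in lone peaks outside the start. A peak is listed when its p is under 0.1 on at least 1 version and its test-arm score is the higher on at least 1 version, and this rule matched all 9005 listed peaks and no other. Because p and direction may come from different versions, a peak can enter with a p under 0.1 only on the version where its test arm was lower. That was so for 110 of the 254 listed start-only peaks (43.3%, 37.1% to 49.6%), for 37.5% of the 275 listed start peaks on transcripts with other peaks, and for 2.91% of the 8476 listed peaks outside the start. The test arm was higher on the version that gave the p in 144 listed start-only peaks. These are 5.05% of the set (against 26.7% of all peaks), while 791 peaks (27.7%, against 8.59%) were higher in the comparator arm by the same measure. The mirror image of the list's rule, asking for a higher comparator score, held for 825 start-only peaks (28.9%, against 10.7%), and 149 of these were also in the list.

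Single peaks are given by transcript identifier, since none of the 14219 identifiers matched the name tables used here. Their coordinates are read as mm9. Among the 55 start-only peaks with p under 0.05 on both versions and the same direction, 50 were higher in the comparator arm (1.77% of those with both p-values, against 0.515% of all peaks) and 5 in the test arm (0.177%, against 4.14%). The lowest was the start peak of uc008vdy.1, 72 nt into the transcript, on chromosome 4 at position 133638298. The authors' deposited table gave it a test score of 0.63 and a comparator score of 3.70 on the first version (p = 0.0296) and second-version scores of -0.58 and 3.39 (p = 0.0159). It was called in 0 test replicates and 2 comparator replicates, with the nearest motif 60 nt upstream. The next was uc009icm.1, 38 nt into the transcript, on chromosome 7 at position 88934302, for which the authors' deposited table gave scores of 0.39 and 2.49 (p = 0.0394) and, on the second version, -0.58 and 1.35 (p = 0.0432). It was called in 1 comparator replicate only, 13 nt from a motif downstream.

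In the other direction, the start peak of uc009stw.2, on chromosome X at position 20497994 and 51 nt into the transcript, led the set. The authors' deposited table gave it 2.84 in the test arm and listed the comparator arm at 0 on the first version (p = 0.0287), with 4.73 and 1.38 on the second (p = 0.0102). For uc007mhg.1, on chromosome 11 at position 115228975 and 59 nt into the transcript, the authors' deposited table gave 3.43 in the test arm, the comparator arm listed at 0 (p = 0.0189), and 4.28 and 1.71 on the second version (p = 0.0102). Each was called in 1 test replicate and in 0 comparator replicates. The first-version comparator score was listed at exactly 0 in 63 of the 2853 start-only peaks, against 619 of all 32009 peaks. The test score was listed at 0 in 29, against 191 of all peaks. No ratio is given for such peaks. All 4 peaks were picked for extreme differences and rest on calls in at most 2 of 6 replicates. Their adjusted p-values (Benjamini-Hochberg over all peaks) ranged from 0.263 to 0.418.

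Within the transcript start, peaks lay close to the 5' end. The median position was 76 nt (quartiles 54 to 108), and 70.4% were within the first 100 nt, against 84 nt and 64.6% for start peaks on transcripts with other peaks. On the first version the median difference between arms lay farthest below 0 near the 5' end and was closest to 0 in the last bins. The 40 peaks before 25 nt had a median first-version difference of -0.54 (-0.83 to -0.20), and the 521 peaks from 25 to 49 nt had -0.31 (-0.39 to -0.22). From 50 to 149 nt the medians stayed between -0.31 and -0.27. The 178 peaks from 150 to 174 nt had -0.12 (-0.25 to 0.00), and the 132 peaks from 175 to 199 nt had -0.04 (-0.17 to 0.25), with an interval that spans 0. On the second version the first bin was not the lowest: the medians of the 8 bins from the 5' end were -0.23, -0.26, -0.22, -0.22, -0.16, -0.24, -0.10 and -0.04. Both versions were thus nearest 0 from 150 nt on, but they differed near the 5' end. The share meeting the mirror rule went from 34.0% at 25 to 49 nt to 18.9% at 175 to 199 nt. Over the same bins the listed share went from 7.68% (5.54% to 10.3%) to 15.2% (9.51% to 22.4%). In the 40 peaks before 25 nt the mirror share was 35.0% and the listed share 10.0% (2.79% to 23.7%), so the listed share was not lowest at the 5' end. Start peaks on transcripts with other peaks had -0.49 (-0.57 to -0.41) at 25 to 49 nt and -0.23 (-0.36 to -0.13) at 175 to 199 nt. Their listed share went from 4.66% to 13.1% over these bins. Only 29 of them lay before 25 nt, with 0% listed and 6.90% meeting the mirror rule.

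The start part ends at 200 nt. Just outside it, the 291 peaks at 200 to 224 nt had a median difference of -0.11 (-0.20 to -0.01), and 14.4% were listed. The 96 of these that were the only peak of their transcript had -0.09 (-0.37 to 0.16) on the first version and -0.24 (-0.33 to -0.12) on the second, and 18.8% of them were listed. On the second version the 132 start-only peaks just inside had -0.04 (-0.13 to 0.07). Replicate calls also varied with position. Calls in at least 2 replicates of an arm were found for 42.5% of start-only peaks before 25 nt, 60.8% at 25 to 49 nt, 66.9% at 50 to 74 nt and 36.4% at 175 to 199 nt, so this share was low at both ends. Its part in the differences by position was not tested.

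**Figure D3:**
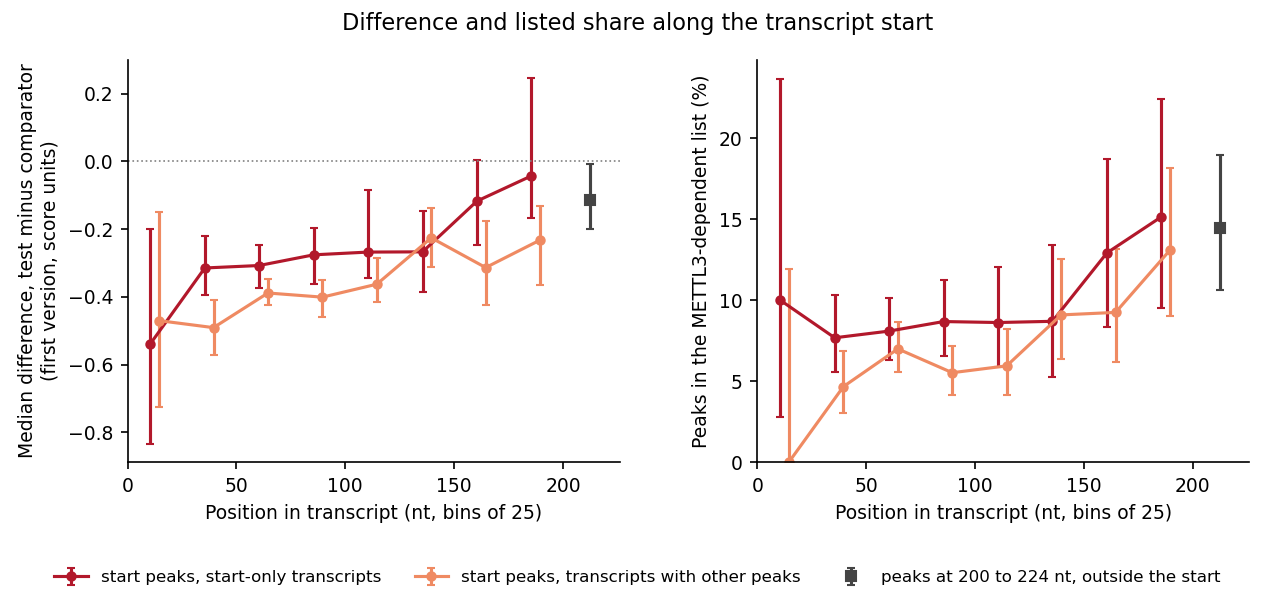
Median first-version difference with its 95% order-statistic interval (left, score units) and share of peaks in the METTL3-dependent list with its exact 95% interval (right, percent) by position in the transcript in bins of 25 nt. Start-only peaks (red) go from -0.54 in the first bin to -0.04 in the last, and the peaks just outside the start (square, -0.11) lie near the last bins.

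For each arm the table has a count from 0 to 3, taken here to be how many replicates had the peak called. At least 2 replicates of an arm had the peak in 1650 start-only cases (57.8%, 56.0% to 59.7%), against 36.2% of all peaks and 26.1% of lone peaks outside the start. Start peaks on transcripts with other peaks had the higher share, 62.5%, so good replication was shared by both kinds of start peak. All 3 replicates of both arms had the peak in 702 cases (24.6%), against 9.58% of all peaks. This share was 24.6% in start peaks on transcripts with other peaks and 6.64% in lone peaks outside the start. No replicate had the peak in 241 cases (8.45%), against 15.9% of all peaks and 6.01% of start peaks on transcripts with other peaks. The comparator arm had more calls than the test arm in 1064 peaks (37.3%, against 29.3% of all peaks) and fewer in 613 (21.5%, against 38.0%). Start peaks on transcripts with other peaks had more comparator calls in 40.4% and fewer in 801 of 4011. Calls in all 3 comparator replicates and no test replicate were recorded for 100 start-only peaks (3.51%, against 0.918% of all peaks), and the converse for 14 (0.491%, against 1.95%). Calls helped choose these peaks, so the counts describe the set.

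The median difference varied with the replicate calls, and the part of the calls in the differences between arms was not tested. In the 702 peaks called in all 6 replicates the median difference was -0.24 (-0.30 to -0.20) on the first version and -0.26 (-0.28 to -0.24) on the second, and the test arm was lower in 72.4% and 82.1% of them. Among the 241 peaks with no call the medians were 0.04 and -0.08. Peaks with more comparator calls had -0.72 and those with more test calls 0.49, on scores that come from the same libraries as the calls.

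**Figure D4:**
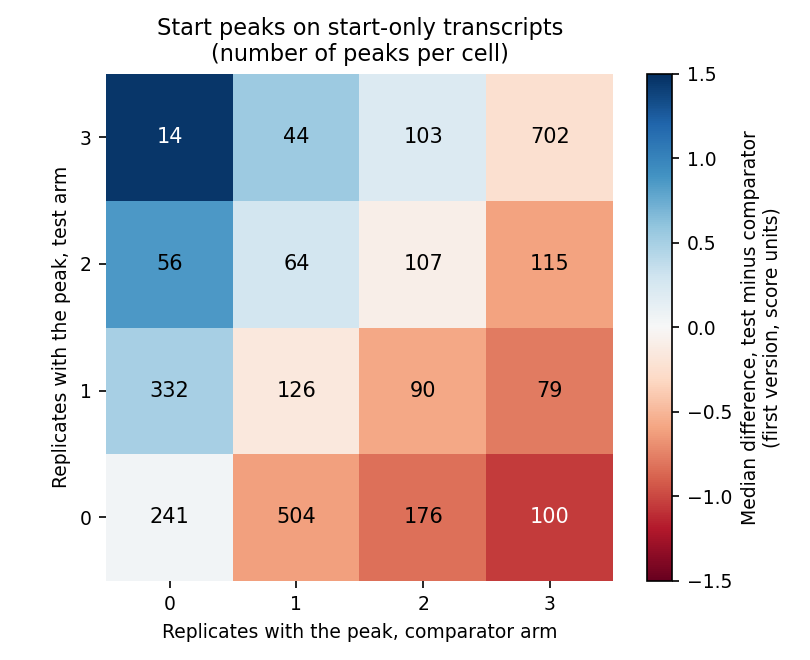
Number of start-only peaks (figure in each cell) by replicates with the peak in the comparator arm (horizontal axis) and the test arm (vertical axis), coloured by the median first-version difference in score units. The largest cell, with all 3 replicates of both arms, holds 702 peaks and is below 0 at -0.24; the cell with 3 comparator and 0 test replicates is at -1.05 and its converse at 1.46.

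Strong and weak peaks leaned the same way. When the 2853 peaks were ranked by the mean of both first-version scores and divided into 4 equal parts, the median first-version differences from the weakest to the strongest part were -0.42, -0.39, -0.20 and -0.17. The second version gave -0.10, -0.21, -0.21 and -0.27, so the trend with strength ran in opposite ways on the 2 versions, and each part was below 0 on both. The listed share was between 8.40% and 9.82% in the 4 parts. The differences on the 2 versions had a Spearman correlation of 0.43 over the 2853 peaks, which share their libraries. It was 0.52 in start peaks on transcripts with other peaks and 0.67 in all peaks outside the start. The versions disagreed in sign in 27.9% of start-only peaks, 27.9% of start peaks on transcripts with other peaks and 22.7% of all peaks.

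Start-only peaks lay farther than lone peaks outside the start from the consensus motif, which the table refers to without spelling it out. METTL3 methylates adenosines in a short consensus known as DRACH, but whether this is the motif meant is not given. A motif was found within 50 nt for 1450 of 2846 start-only peaks (50.9%, 49.1% to 52.8%), against 52.6% of start peaks on transcripts with other peaks and 80.2% of lone peaks outside the start. The median distance was 49 nt (quartiles 20 to 117), against 17 nt (5 to 41) for lone peaks outside the start. For start peaks on transcripts with other peaks it was 47 nt (17 to 114). Distances carry a sign. None of the 2064 start peaks with a positive distance had a distance larger than its position in the transcript, whereas 2299 of 4723 with a negative one did, so negative distances are read as a motif downstream. By that reading the nearest motif was downstream of 70.0% of start-only peaks and upstream of 28.5%, against 47.9% and 49.1% for lone peaks outside the start. A motif upstream of a start peak can lie no farther away than the peak's own position, within 199 nt.

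Start-only peaks within 50 nt of the motif had a median first-version difference of -0.27 (-0.31 to -0.22) and those farther away -0.28 (-0.34 to -0.22). On the second version the medians were -0.19 (-0.22 to -0.15) and -0.23 (-0.25 to -0.21), and the test arm was lower in 65.3% of the near and 72.2% of the far peaks. That share was 62.5% within 5 nt and 73.5% beyond 200 nt. The listed share was 9.59% (8.12% to 11.2%) within 50 nt and 8.09% (6.72% to 9.65%) beyond it. From within 5 nt to beyond 200 nt, it went from 11.7% (7.97% to 16.4%) to 7.01% (4.50% to 10.3%), and these intervals overlap. The 248 start-only peaks within 5 nt of the motif had a median first-version difference of -0.30 (-0.38 to -0.15). Their median second-version difference was -0.17 (-0.22 to -0.09). Whether closeness to the motif bears on the difference between arms was not tested.

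**Figure D5:**
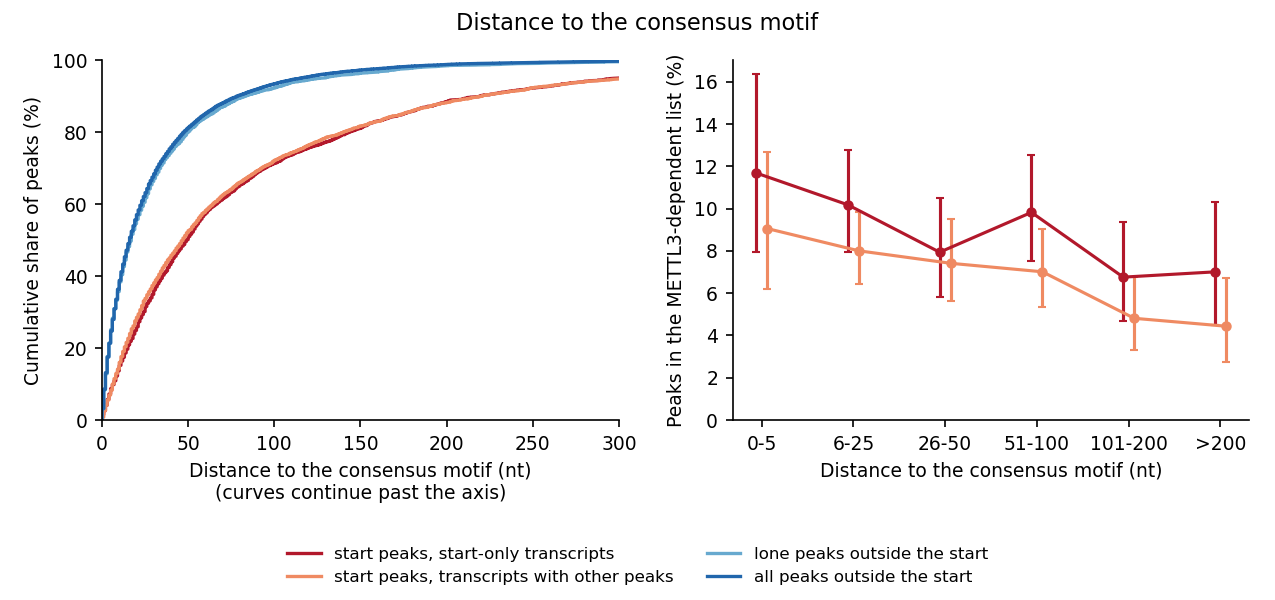
Left, cumulative share of peaks (percent) by distance to the consensus motif (nt) for 4 sets; the lines for both kinds of start peak lie on each other, at 50.9% and 52.6% within 50 nt, below those for peaks outside the start. Right, share of start peaks in the METTL3-dependent list (percent, exact 95% intervals) by distance, with start-only peaks going from 11.7% within 5 nt to 7.01% beyond 200 nt.

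The set was spread over the genome. Chromosome 7 held the most start-only peaks, 247 (8.66%, 7.65% to 9.75%), against 6.58% of all peaks and 6.08% of start peaks on transcripts with other peaks. Chromosome 17 held 181 (6.34%, 5.48% to 7.30%), against 5.05% and 4.44%, and the X chromosome 108 (3.79%, 3.12% to 4.55%), against 3.06% and 3.24%. On each of the 20 chromosomes with at least 20 start-only peaks the median first-version difference was below 0, from -0.40 to -0.05. The value nearest 0 was on the X chromosome (-0.05), followed by chromosome 12 (-0.06). Of the 108 start-only peaks on the X chromosome 11.1% were listed, against 8.90% of the set. The listed shares were 14.0% of 157 peaks on chromosome 5, 11.7% of 240 on chromosome 11 and 11.5% of 104 on chromosome 12. Listed shares of all peaks on these chromosomes and intervals are not given here, so these values set no chromosome apart.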

How the data were processed

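Barcoded poly(A) RNA went through 2 rounds of m6A pull-down, per the labels' protocols. Builds mm9 and mm10 and the tools SAMtools 1.3.1, DESeq2, HTSeq, STAR and cutadapt stand in the submitters' processing notes; the sources used here do not give the peak caller, the score formula or the test. The authors deposited peak scores pooled per arm in 2 versions and an unadjusted p-value per version; 26 start-only peaks had none on the first. Of the start-only positions, 29 run past the ends of GRCm38 chromosomes (164 of all peaks), so they were taken as mm9 and no sequence or annotation was drawn.

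With scores pooled per arm no test of its own was possible; Benjamini-Hochberg adjustment over the whole table was applied to the deposited p-values. Shares have exact Clopper-Pearson 95% intervals, and medians exact order-statistic intervals. Named peaks are the 2 most extreme in each direction by the mean of both differences, among those with p under 0.05 on both versions and 1 direction. Gene and marker lists could not be applied, as identifiers matched no names. The set, the lists and the planned settings were chosen with earlier results of these data known; the settings added later are named among the alternatives. Computations were tested on simulated data. Python 3.11.15, numpy 2.4.6, pandas 2.3.3, scipy 1.17.1 and matplotlib 3.10.9 were used.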

Additional observations from a re-analysis of the deposited data

How the results depend on the processing

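No paired analysis was possible because the scores are pooled per arm; leaving out replicates could not be run either. The METTL3-dependent share of 8.90% went to 3.15% by first-version values alone, 2.63% by second-version values, 0.707% by both and 5.05% with p and direction from 1 version, since the list joins both versions. The share meeting the mirror rule, 28.9% (against 10.7% of all peaks), went to 17.9% at p under 0.05 and 4.21% at p under 0.01. A stricter p can only lower it. By first-version values alone it was 18.5% (against 6.12%) and by second-version values 14.2% (against 3.86%). With calls in at least 2 replicates of an arm it was 37.3%. Shares of all peaks at the stricter thresholds and with such calls are not given here, so those values alone show no lean. The median difference of -0.27 went to -0.21 on the second version and -0.33 with such calls. The medians of all peaks were 0.25 and 0.49 on the 2 versions; centred on these, the start-only median was -0.52 and -0.70. The share with a lower test arm, 64.6%, went to 68.7% on the second version, 70.4% with calls in at least 2 replicates, and, centred, to 76.6% and 87.7%. Among the settings without centring, none turned the direction. Centring could not turn it, because the subtracted medians of all peaks were above 0. Within 25 nt of the motif lay 31.5%, within 100 nt 71.3%, and within 50 nt 48.2% of the better replicated peaks. All 3 replicates of an arm called 40.6% of the set. The 10 remaining alternatives stayed within the interval of the reported value or, for adjusted p-values up to 0.1, at 0 peaks. The comparisons with p and direction from 1 version, centred second-version values, 1 peak per position, neighbour-free peaks and, for the mirror rule and the lower share, replicate calls were added after seeing the data here. Depth is unknown, so no limit from it could be set on a score.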

Other observations

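Some start-only transcripts lie beside other transcripts of the table. A peak of another transcript was within 1000 nt of 772 start-only peaks (27.1%, 25.4% to 28.7%), and the nearest such peak was itself a transcript-start peak for 651 of them. At these 772 peaks the median first-version difference was -0.23 (-0.31 to -0.17), and at the other 2081 it was -0.28 (-0.32 to -0.24). At exactly the same genomic position as a peak of another transcript lay 81 start-only peaks. In 54 cases exactly 2 transcripts shared 1 start-peak position and at least 1 of them was start-only; in 36 of these the partner transcript had peaks elsewhere. The 54 pairs differed in motif distance without exception, 52 had the same sign of the first-version difference, and in 3 pairs 1 peak was listed and its partner was not.

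The 73 start-only transcripts with 2 start peaks had them 52 to 163 nt apart, with a median of 83 nt. On the first version both peaks were lower in the test arm in 34 transcripts, both were higher in 31, and 8 had opposite directions. On the second version these counts were 35, 23 and 15. The peak nearer the 5' end had the higher mean score in 61 of the 73 and the lower first-version difference in 43. Neither peak was listed in 63 transcripts, 1 of the 2 in 9 and both in 1.

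The 3 strongest start-only peaks by mean first-version score, chosen after their values were seen, are given by position in mm9. In the authors' deposited table the peak on chromosome 7 at position 107007346 had first-version test and comparator scores of 8.04 and 7.52 (unadjusted p = 0.610) and second-version scores of 3.68 and 3.90 (p = 0.309). The authors' deposited table gave 8.29 and 6.92 (unadjusted p = 0.00848), and on the second version 4.68 and 4.23 (p = 0.128), to the peak on chromosome 7 at position 130114134, which had no replicate call and lay 6 nt from a peak of another transcript. The peak on chromosome 9 at position 64585459 scored 6.85 and 7.04 (unadjusted p = 0.740), and on the second version 3.41 and 3.97 (p = 0.0567), in the authors' deposited table.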
